A study of Mus musculus with 2 samples.

Results

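The regions described here are intronic DNase I peaks of short protein-coding genes in the mouse right cerebral cortex. A peak was included when it was called in the stricter peak set of both libraries (at least 1 bp of overlap), its centre lay over 1000 bp from every annotated transcript start and outside every exon, and every protein-coding gene holding that centre was under 50000 bp long. Of 91818 strict peaks of replicate 1, 60789 overlapped a strict peak of replicate 2, 39265 of these were over 1000 bp from a start, 37019 of those were outside exons, and 16288 of those lay in a protein-coding gene. The length limit then kept 3149 peaks, 5.18% of all shared peaks. The other 13139 lay in at least 1 gene of 50000 bp or more and are called the peaks of longer genes below. The 3149 peaks fell in 2325 host genes, and 49 of them lay inside more than 1 protein-coding gene. They were not all separate pieces of DNA, since 54 overlapped another of the 3149 and 73 shared their replicate 2 peak with another.

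Introns hold many of the enhancers, silencers and insulator sites of a mammalian genome, and some of these act on the gene that contains them while others act on a neighbour. DNase I cuts DNA preferentially where nucleosomes have been displaced by bound factors, so a peak marks an accessible stretch, and a footprint marks a short run of bases inside it that was cut less than its surroundings. In neurons, intronic enhancers often carry sites for AP-1 and proneural basic helix-loop-helix factors, whereas CTCF is an architectural protein that binds in most cell types.

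Both libraries came from 2-month-old male mice of the hybrid B6CASTF1/J, whose parents are the strains C57BL/6J and CAST/EiJ; replicate 1 is labelled as animal 5 and replicate 2 as animal 6. They form 1 group with no treatment and no contrast, so no p-value was computed, and each comparison below is between sets of peaks measured in the same libraries. The labels give both animals the same donor record, so that they were separate mice rests on the animal numbers, and the spread between the libraries may be partly technical. The tissue is a mixture of cell types: a low peak from few cells and a low peak from weak access in many cells cannot be told apart. Promoter peaks were present for 12 of 12 excitatory neuron markers in replicate 1 and 9 of 12 in replicate 2. For inhibitory neuron markers the counts were 5 and 4 of 12, for astrocyte markers 10 and 7 of 12, and for microglia markers 3 and 1 of 12. Liver markers, a tissue that should be absent, had 0 of 10 in both libraries, and lymphoid markers had 1 and 2 of 10.

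The sequences below show what these regions look like as DNA. The first 6 are the centres of the tallest single-copy peaks by mean rank over both libraries, and Clec11a, Mxd3 and Ptma rank highest by height in genes under 5000 bp. Tmem242 and Hs1bp3 hold a word of the CTCF site and were added after values were seen. Numbl holds an ETS word, the word with the largest ratio of shares between short and longer genes. Only the peak centre had to lie outside exons, so a window can include exonic bases. Each is the 200 bases around the peak centre of replicate 1, read 5′ to 3′ on the plus strand of the RefSeq copy of GRCm38.p6 (mm10), and capitals mark bases that lay inside a called footprint in both libraries.
Nr1d1: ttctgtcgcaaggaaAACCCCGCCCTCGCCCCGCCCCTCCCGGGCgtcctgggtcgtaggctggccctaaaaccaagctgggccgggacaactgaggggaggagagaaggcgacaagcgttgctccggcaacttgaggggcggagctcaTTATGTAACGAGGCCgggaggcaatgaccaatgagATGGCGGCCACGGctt
Tmem189: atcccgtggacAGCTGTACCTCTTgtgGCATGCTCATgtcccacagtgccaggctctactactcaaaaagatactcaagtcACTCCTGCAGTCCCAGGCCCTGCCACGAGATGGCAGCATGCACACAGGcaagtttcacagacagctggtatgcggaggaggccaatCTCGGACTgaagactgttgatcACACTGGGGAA
Cnih2: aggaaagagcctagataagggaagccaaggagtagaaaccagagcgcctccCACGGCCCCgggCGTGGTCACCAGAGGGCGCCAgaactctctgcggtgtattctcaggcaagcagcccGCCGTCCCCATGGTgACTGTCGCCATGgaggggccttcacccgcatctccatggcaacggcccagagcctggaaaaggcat
Zfp13: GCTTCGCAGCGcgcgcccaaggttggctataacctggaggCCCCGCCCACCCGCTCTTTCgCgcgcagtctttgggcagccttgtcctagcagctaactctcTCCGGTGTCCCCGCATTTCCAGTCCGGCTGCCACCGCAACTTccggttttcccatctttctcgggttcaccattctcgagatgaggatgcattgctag
Atoh8: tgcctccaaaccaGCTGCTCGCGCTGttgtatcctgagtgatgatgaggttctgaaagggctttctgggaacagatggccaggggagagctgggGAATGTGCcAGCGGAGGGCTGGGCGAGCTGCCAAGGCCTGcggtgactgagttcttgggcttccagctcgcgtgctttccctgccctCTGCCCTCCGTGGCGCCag
Aida: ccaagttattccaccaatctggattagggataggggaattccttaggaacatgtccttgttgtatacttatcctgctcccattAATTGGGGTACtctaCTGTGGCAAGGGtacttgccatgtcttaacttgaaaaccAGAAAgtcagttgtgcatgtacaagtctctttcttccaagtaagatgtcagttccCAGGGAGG
Clec11a: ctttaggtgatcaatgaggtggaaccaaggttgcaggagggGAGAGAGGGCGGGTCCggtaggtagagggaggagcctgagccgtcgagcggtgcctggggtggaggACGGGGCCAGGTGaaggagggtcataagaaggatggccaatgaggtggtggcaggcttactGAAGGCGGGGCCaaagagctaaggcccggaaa
Mxd3: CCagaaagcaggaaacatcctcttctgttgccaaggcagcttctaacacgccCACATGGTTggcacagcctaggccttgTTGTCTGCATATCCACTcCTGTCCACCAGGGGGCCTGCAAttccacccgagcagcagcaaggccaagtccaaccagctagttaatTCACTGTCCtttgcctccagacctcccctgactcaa
Ptma: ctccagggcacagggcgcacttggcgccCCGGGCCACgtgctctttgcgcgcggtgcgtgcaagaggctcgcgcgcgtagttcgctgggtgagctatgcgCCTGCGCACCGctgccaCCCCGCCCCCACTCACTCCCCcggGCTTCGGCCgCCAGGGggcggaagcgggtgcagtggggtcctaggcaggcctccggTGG
Tmem242: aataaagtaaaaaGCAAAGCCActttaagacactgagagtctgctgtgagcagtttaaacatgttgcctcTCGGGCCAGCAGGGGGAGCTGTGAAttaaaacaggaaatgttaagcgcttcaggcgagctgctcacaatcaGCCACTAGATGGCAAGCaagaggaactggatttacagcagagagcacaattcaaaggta
Hs1bp3: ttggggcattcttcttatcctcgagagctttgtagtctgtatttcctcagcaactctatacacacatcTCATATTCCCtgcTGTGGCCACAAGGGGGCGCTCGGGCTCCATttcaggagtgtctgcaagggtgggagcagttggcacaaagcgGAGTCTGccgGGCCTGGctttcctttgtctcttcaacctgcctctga
Numbl: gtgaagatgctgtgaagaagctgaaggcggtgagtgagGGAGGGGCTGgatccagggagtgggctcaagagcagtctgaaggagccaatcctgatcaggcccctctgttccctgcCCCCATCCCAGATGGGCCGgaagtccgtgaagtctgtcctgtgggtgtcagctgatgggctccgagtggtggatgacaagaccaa

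These windows lie at chr11:98773931-98774130 (Nr1d1), chr2:167685221-167685420 (Tmem189), chr19:5094341-5094540 (Cnih2), chr17:23592691-23592890 (Zfp13), chr6:72216721-72216920 (Atoh8), chr1:183299141-183299340 (Aida), chr7:44305051-44305250 (Clec11a), chr13:55327791-55327990 (Mxd3), chr1:86528241-86528440 (Ptma), chr17:5429481-5429680 (Tmem242), chr12:8326911-8327110 (Hs1bp3) and chr7:27266601-27266800 (Numbl). Footprints common to both libraries covered between 29 bases (Numbl) and 90 bases (Tmem189) of the 200. In the Mxd3 window the CTCF word CCANNAGGG (N is any base) stood at positions 102 to 110, counted from the 5′ end of the printed strand, and all 9 of its bases were in footprints of both libraries. The same held for the CTCF words of Tmem242 (positions 76 to 84) and Hs1bp3 (positions 87 to 95). Both SP/KLF words of Nr1d1 (GGGCGGG on the minus strand), at positions 19 to 25 and 30 to 36, lay fully in footprints of both libraries, as did the single SP/KLF words of Zfp13, Clec11a and Ptma. Coverage was not uniform across words: the AP-1 word (TGANTCA) of Mxd3 had 0 of 7 bases in a footprint of either library, and the ETS word (CCGGAAGT) of Numbl had 3 of 8 in replicate 1 and 6 of 8 in replicate 2. Whether the Numbl word itself lay in intron or exon was not examined.

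The tallest intronic peaks of short genes sat in genes of several kinds, and most of them stood above the promoter of their own host. Height is the signal deposited with each peak, on a scale that is not stated, so heights are compared within a library. The tallest by mean within-library rank was in the first intron of Nr1d1, the circadian nuclear receptor REV-ERB alpha, 1302 bp from the nearest start. It measured 7.74 in replicate 1 and 4.45 in replicate 2, under the promoter peak of the same gene at 9.26 and 6.64. A peak in Tmem189, which encodes the desaturase of plasmalogen synthesis, measured 8.23 and 4.01, above its promoter at 4.11 and 3.08. The peak in the second intron of Cnih2, an auxiliary subunit of AMPA-type glutamate receptors, measured 7.57 and 3.97 in a host only 5654 bp long, whose promoter peak was 1.39 and 1.01. Zfp13, a zinc finger gene, had 6.61 and 3.98 in its first intron against 1.68 and 1.25 at its promoter. Atoh8, a basic helix-loop-helix factor, had 5.92 and 4.001 in its last intron, 17716 bp from the nearest start, against 1.09 and 0.599 at its promoter. In Tmem189, Cnih2, Zfp13 and Atoh8 the intronic site was thus the taller in each library.

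Other tall peaks were in Aida, Mnt, Clec18a, Vps37c, Dync1li2 and Gm44511. Mnt, a repressor of the MAX network, had 6.00 and 3.78 in its first intron, slightly under its promoter at 6.56 and 4.14. Vps37c, a subunit of the ESCRT-I sorting complex, had 5.85 and 3.52 against 3.98 and 2.23, and Dync1li2, a light intermediate chain of dynein, had 5.65 and 3.42 against 3.82 and 2.30. For Clec18a, a C-type lectin gene, the intronic peak of 5.83 and 3.82 stood in a gene with no strict promoter peak in replicate 1 and one of 0.361 in replicate 2. Gm44511 had 6.13 and 3.26 and no promoter peak in either library. Aida, an axin-binding protein, was the exception in the balance of the libraries, with 4.76 in replicate 1 and 6.83 in replicate 2.

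**Figure D1:**
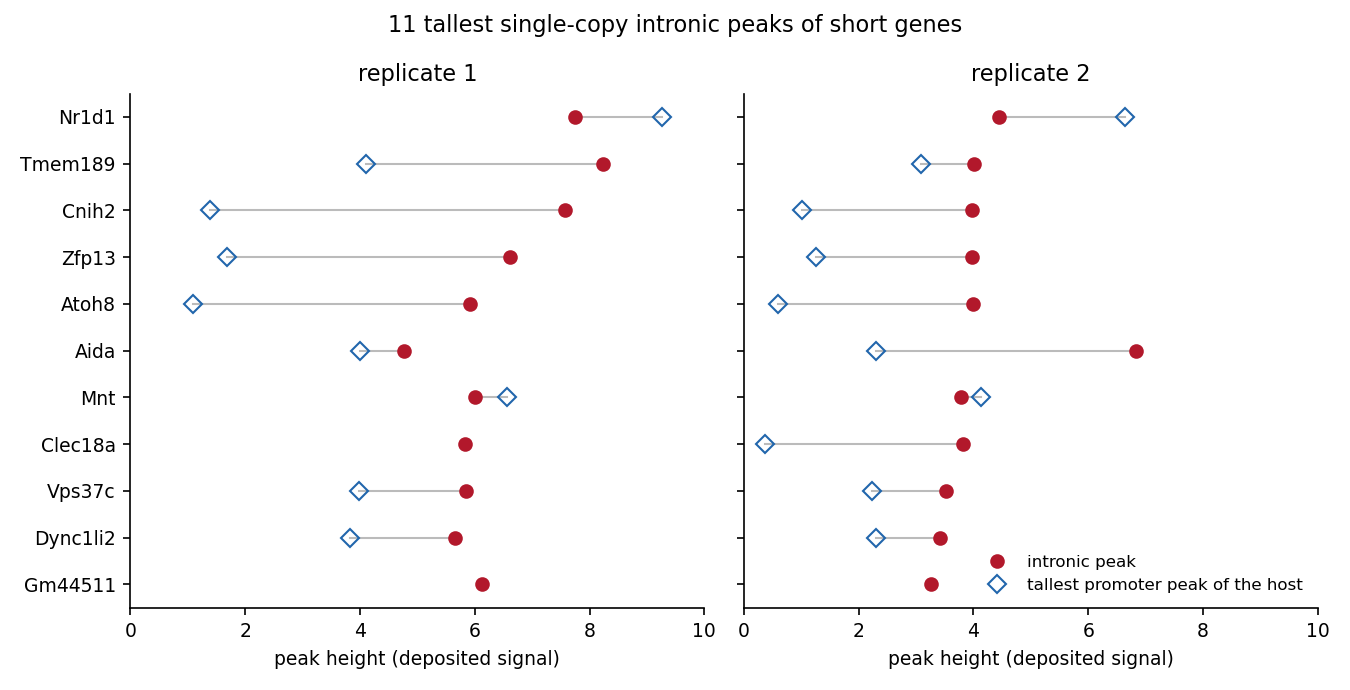
Heights (deposited signal, x axis) of the 11 tallest single-copy intronic peaks of short genes, 1 row per host gene, in replicate 1 (left) and replicate 2 (right). Filled circles are the intronic peak and open diamonds the tallest strict promoter peak of the same gene, missing where there was none; the intronic peak of Atoh8, at 5.92 and 4.001, lies right of its promoter at 1.09 and 0.599, while Nr1d1 and Mnt show the reverse order.

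Across all hosts a member taller than its promoter was the less common case. Of 2200 intronic peaks whose host had a promoter peak in both libraries, 312 (14.2%) were taller than that promoter in both, against 12.5% of 11251 peaks of longer genes. The median ratio of intronic to promoter height was 0.455 in replicate 1 and 0.497 in replicate 2, against 0.470 and 0.555 in longer genes. Spearman's rho between the 2 heights over those 2200 peaks was 0.05 in replicate 1 and 0.09 in replicate 2, as a description, since peaks of 1 gene share a promoter.

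As a set, the intronic peaks of short genes were a little taller than those of longer genes. The median height was 1.28 in replicate 1 (quartiles 0.864 and 1.87) and 0.914 in replicate 2 (0.660 and 1.29), against 1.06 and 0.852 for the peaks of longer genes and 1.25 and 0.937 for all shared peaks. The direction was the same in both libraries and the quartile ranges overlapped widely. Of the 3149 peaks, 7.24% were among the tallest 10% of all strict peaks of replicate 1 and 4.35% among those of replicate 2, against 3.95% and 2.41% in longer genes. Median width was 200 bp in both sets. GC content was higher, at a median of 51.8% against 50% in longer genes, and the introns themselves differed the same way, with 43.9% against 41.8% GC. Values at the edges of the rule were close: 342 peaks of hosts between 45000 and 50000 bp had medians of 1.17 and 0.860, and 299 peaks of hosts between 50000 and 55000 bp had 1.20 and 0.914. Likewise 217 peaks between 1000 and 1250 bp from a start had medians of 1.24 and 0.945, and 296 between 750 and 1000 bp had 1.18 and 0.852.

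**Figure D2:**
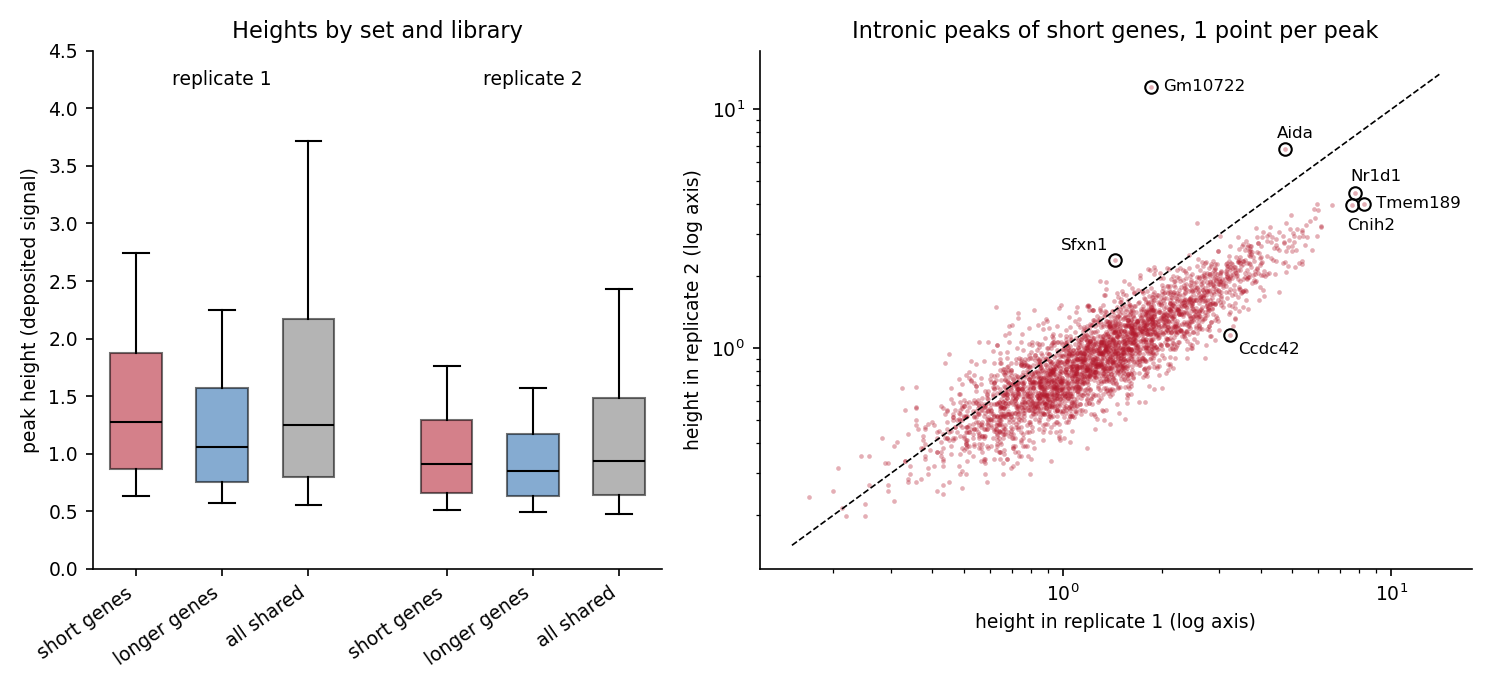
Left, heights (deposited signal) by library in the intronic peaks of short genes, the peaks of longer genes and all shared peaks, with the median (line), quartiles (box) and 10th and 90th percentiles (whiskers); the medians are 1.28, 1.06 and 1.25 in replicate 1 and 0.914, 0.852 and 0.937 in replicate 2. Right, the 3149 peaks of short genes by height in each library on log axes, where the dashed line marks equal heights and Gm10722 and Aida stand above it.

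The libraries ranked the 3149 peaks alike, with a Spearman's rho of 0.86 across peaks (0.83 across the peaks of longer genes). The ratio of replicate 1 to replicate 2 height had a median of 1.40 against 1.29 in longer genes, and 378 of the 3149 (12%) were taller in replicate 2, against 18.8% in longer genes. The ratio moved with GC content: among peaks of short genes its median was 1.20 below 45% GC, 1.34 from 45% to 50%, 1.40 from 50% to 55%, 1.46 from 55% to 60% and 1.504 at 60% or above. In the same classes the peaks of longer genes had 1.12, 1.23, 1.33, 1.40 and 1.44. The part of base composition in the ratio was not tested. Sharing also depended on the library. Of 5327 strict peaks of replicate 1 that met the positional rule, 59.1% were shared (95% exact interval 57.8 to 60.4), against 62.1% in longer genes. Of 3759 such peaks of replicate 2, 83.9% were shared (82.7 to 85.1), against 75.7% in longer genes. The order of the 2 gene classes was thus opposite in the 2 libraries. Peaks that were not shared were low, with a median of 0.670 in replicate 1 and 0.538 in replicate 2, and in 58.8% and 80.6% of them the other library listed at least 1 base under a false discovery rate of 0.05.

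Single loci departed from this balance. Among the 1325 peaks above the median height in both libraries, to which the ratios in these sentences are limited, 51 were taller in replicate 2. The lowest ratio, 0.150, belonged to Gm10722, with 1.85 in replicate 1 and 12.4 in replicate 2. That peak is fully repeat-masked, its sequence words had a median of 50 copies in the assembly, and its source among those copies cannot be told. The next lowest of the 1325 were single-copy peaks in Sfxn1, a mitochondrial serine transporter, with 1.45 and 2.33, and in H2-Ab1, the beta chain of a class II histocompatibility molecule, with 1.30 and 1.92. The highest ratios of the 1325 were in Ccdc42, a coiled-coil gene (3.23 and 1.14), Map3k14, the NF-kappa-B-inducing kinase (2.91 and 1.08), and Col8a2, a collagen gene (3.30 and 1.24). In all, 24 peaks (0.762%) had several copies in the assembly, against 0.358% in longer genes.

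The number of peaks per length of intron hardly changed among genes under 50000 bp. Counting only intronic bases that could have held a member, short genes had 20.3 shared peaks per Mb over 155 Mb, against 18.4 per Mb over 713 Mb in longer genes. By host length the density was 21.0 per Mb below 10000 bp, 20.8 from 10000 to 20000 bp, 19.5 from 20000 to 30000 bp, 20.1 from 30000 to 40000 bp and 20.5 from 40000 to 50000 bp. It was 20.8 from 50000 to 100000 bp and 21.2 from 100000 to 200000 bp, and it was lower only above 200000 bp, at 16.4. The lower density of longer genes thus lay in the longest class. In replicate 2 alone the 2 gene classes had nearly the same density, 24.2 strict peaks per Mb in short and 24.3 in longer genes, whereas in replicate 1 they had 34.3 and 29.7.

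**Figure D3:**
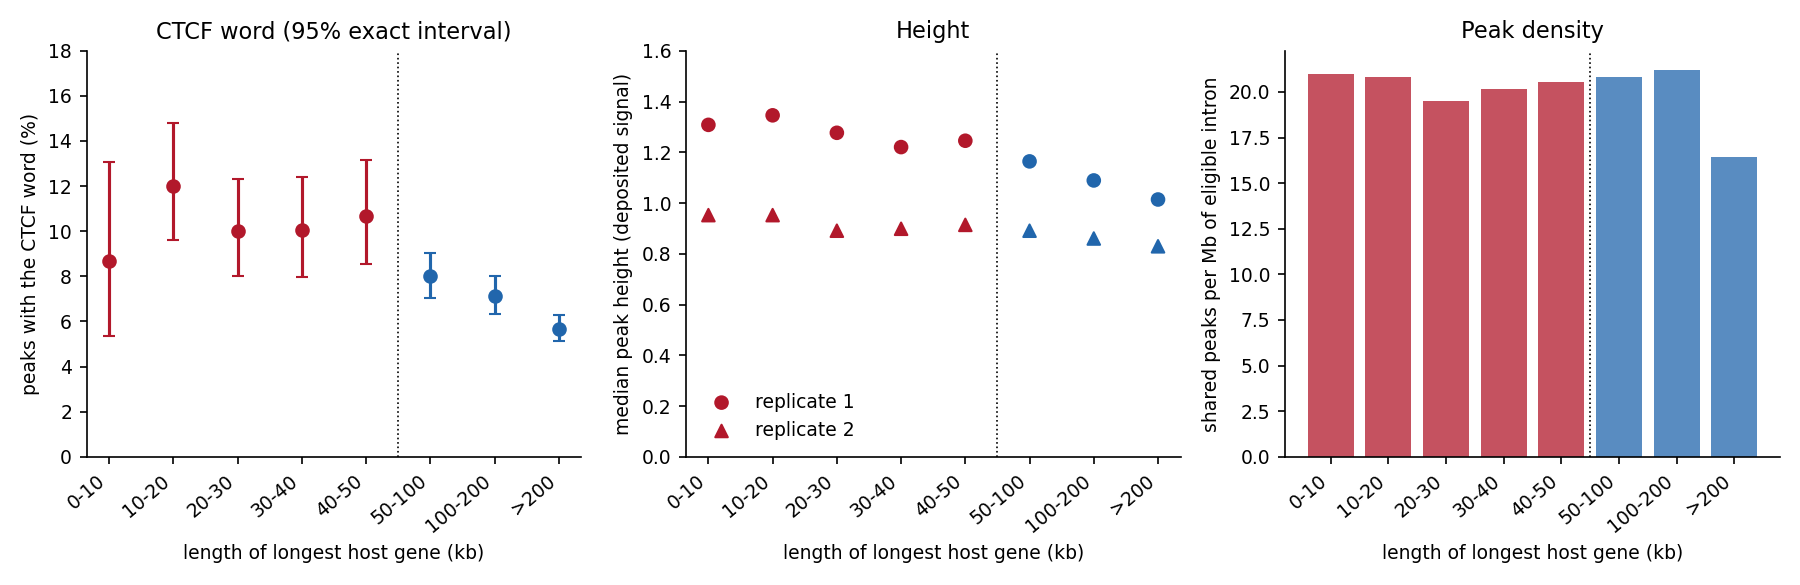
Shared intronic peaks by the length of the longest host gene (x axis, kb), with genes under 50 kb in red and longer genes in blue, separated by the dotted line. Left, the share of peaks with the CTCF word and its 95% exact interval, from 8.66% in the shortest class to 5.68% in the longest, with 12% at 10 to 20 kb; middle, median height in each library; right, shared peaks per Mb of eligible intron, 16.4 in the longest class and 19.5 to 21.2 elsewhere.

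Most of the peaks, 2948 of 3149, lay in an intron of the principal transcript of the host, and 945 of these (32.1%, 95% exact interval 30.4 to 33.8) were in its first intron. First introns made up 28.8% of the eligible intronic bases of the same genes. The density was 22.2 peaks per Mb in first introns and 19.1 per Mb in later ones. With centres over 2500 bp from every start the first-intron share of peaks was 26.1%, and the share of bases at that distance was not computed. Heights differed little by place. Median height was 1.25 and 0.921 in first introns, 1.20 and 0.860 in second introns and 1.30 and 0.914 in later ones. The 201 peaks outside the introns of the principal transcript were the tallest class, with 1.602 and 1.09, and included the tall peaks named in Tmem189 and Clec18a. The median distance to the nearest start was 4320 bp against 15362 bp in longer genes, a contrast that the length limit on the hosts itself bounds.

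Among words found in over 100 peaks, CTCF and SP/KLF had the highest ratio of shares between short and longer genes. Windows of 200 bp at the peak centres were searched on both strands for 28 short words of transcription factor sites. CCANNAGGG was found in 330 of the 3149 windows (10.5%, 95% exact interval 9.43 to 11.6), against 6.60% (6.18 to 7.04) in longer genes and 6.91% of all shared peaks. All 200-bp tiles of the eligible introns held it in 2.65% of short genes and 2.29% of longer genes, so the word was more frequent in peaks than in their introns in both. The tiles held eligible bases only, whereas windows at peak centres could extend into exons. By host length the share was 8.66%, 12%, 10.01%, 10.04% and 10.7% in the 5 classes under 50000 bp, and 8%, 7.14% and 5.68% in the 3 classes above. Within classes of GC content the share was 7.89% against 4.67% in longer genes below 45% GC, 9.29% against 4.81% from 45% to 50%, and 11.7% against 7.25% from 50% to 55%. From 55% to 60% it was 11.02% against 10.9%, and at 60% or above 11.1% against 9.94%. A short exact word leaves out variants of a site, and a match is a description of the letters alone.

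Within short genes the CTCF word was commoner away from the 5′ end. It was in 6.67% of peaks of first introns (5.16 to 8.45), 10.7% of second introns (8.03 to 13.8) and 12.5% of peaks further downstream (10.9 to 14.3). With each gene cut into 3 equal lengths from its 5′ end, the shares in order were 7.54% (6.01 to 9.33), 11.1% (9.37 to 13.1) and 12.8% (10.8 to 15.1). In longer genes the same 3 stretches had 6.67%, 5.95% and 7.18%. Median GC content of the short-gene peaks was 52.4%, 51.5% and 51.7% in that order, and its part in the trend was not tested. Where the word was on 1 strand only, it ran along the host's transcribed direction in 143 of 321 peaks (44.5%, 39.0 to 50.2), against 44.1% (40.8 to 47.5) in longer genes.

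Peaks with the CTCF word were taller in both libraries, in short and in longer genes. In short genes their median height was 1.52 in replicate 1 and 0.998 in replicate 2, against 1.25 and 0.906 for the 2819 peaks without it. In longer genes it was 1.45 and 1.01 with the word, against 1.05 and 0.845 without it. The ratio of replicate 1 to replicate 2 was higher in short-gene peaks with the word, 1.57 against 1.38, at a median GC content of 52.3% against 51.7%. With the short-gene peaks in 10 classes of equal number by height, the share with the word was between 6.35% and 9.21% in the 5 lower classes and between 10.5% and 14.6% in the 5 upper ones. In the lowest class it was 6.35% against 3.50% in the lowest class of longer genes. In the tallest class the 2 shares were close, 14.6% (10.9 to 19.0) against 13.5% (11.7 to 15.5). Among the tallest short-gene peaks with the word were those in Tmem242 (5.34 and 3.13), Hs1bp3 (4.93 and 3.16) and Mxd3 (5.56 and 2.93), which encodes a repressor of the MAX network.

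**Figure D4:**
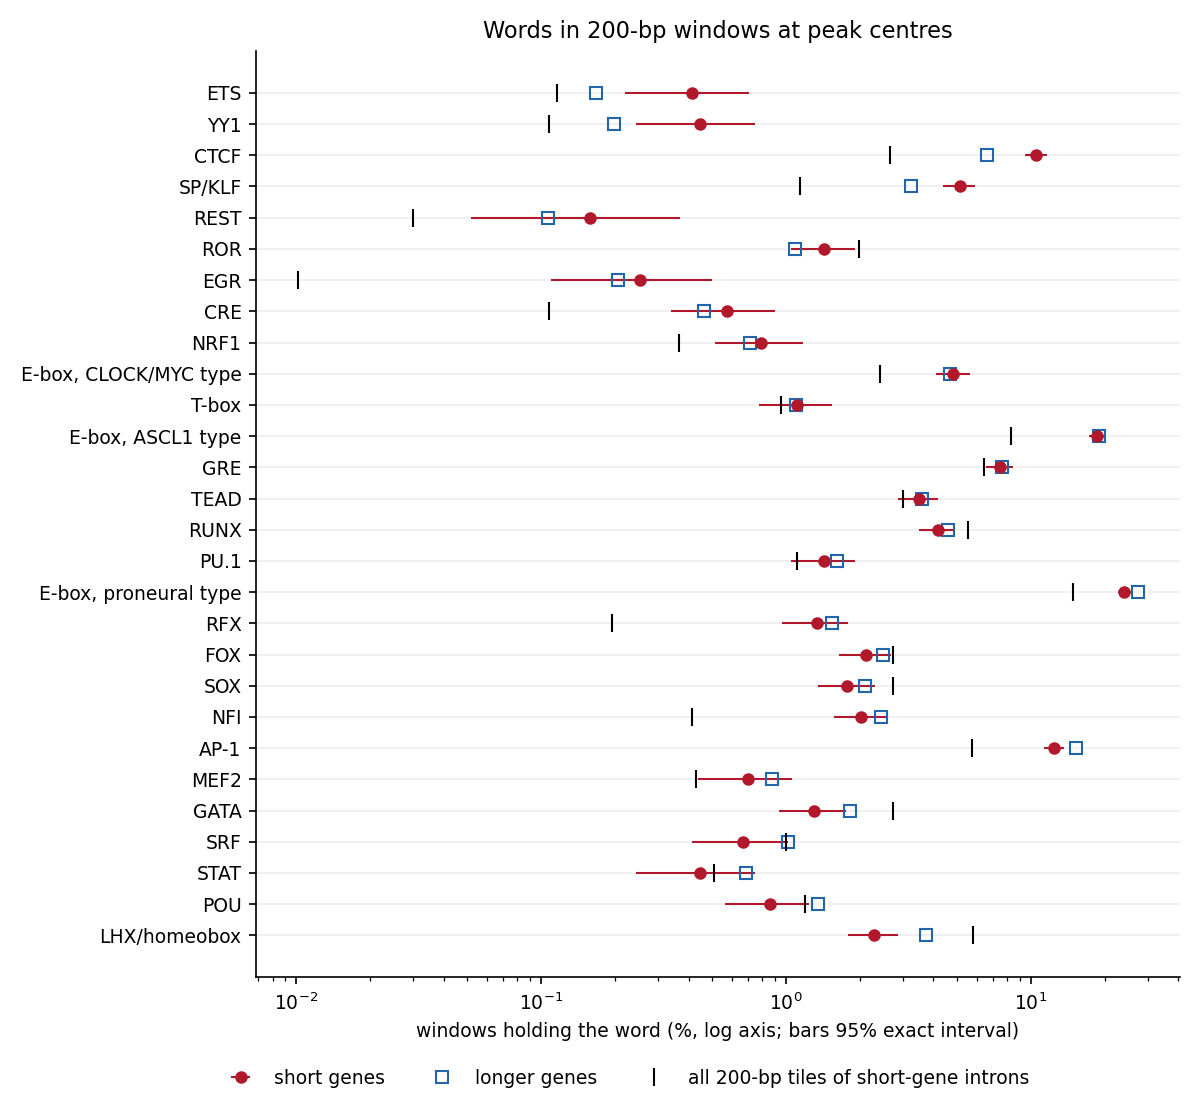
Share of 200-bp windows that hold each word (x axis, log scale, percent) in the intronic peaks of short genes (circles, 95% exact interval), in the peaks of longer genes (squares) and in all 200-bp tiles of short-gene introns (ticks), ordered by the ratio of short to longer genes. CTCF stands at 10.5%, 6.60% and 2.65%, and LHX/homeobox, at the bottom, at 2.29%, 3.72% and 5.80%.

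Of the other words, some were more frequent and some less frequent in short genes. The GC-box word GGGCGGG, bound by SP and KLF factors, was in 5.11% of peaks (4.37 to 5.94) against 3.23% in longer genes. Its share was 8.04% between 1000 and 2000 bp from the nearest start, 5.02% to 5000 bp, 3.79% to 10000 bp, 4.23% to 20000 bp and 2.21% beyond. By GC content it was higher than in longer genes at the extremes, 1.75% against 1.01% below 45% GC and 27.0% against 18.3% at 60% or above. Between these it was not higher. It was 1.36% against 1.95% from 45% to 50%, 2.72% against 2.79% from 50% to 55% and 5.75% against 6.00% from 55% to 60%. In the other direction, the AP-1 word was in 12.5% (11.3 to 13.7) against 15.2% (14.6 to 15.9) in longer genes. The proneural E-box CAGATG was in 24.1% (22.6 to 25.6) against 27.3% (26.6 to 28.1), and the homeobox word TAATTA in 2.29% (1.79 to 2.87) against 3.72% (3.40 to 4.06). The E-boxes CAGCTG (18.6% against 18.9%) and CACGTG (4.83% against 4.69%) and the words of RFX (1.33% against 1.54%) and GRE (7.46% against 7.66%) had intervals that held the value of longer genes. ETS was found in 13 peaks (0.413% against 0.167%) and YY1, AAGATGGCG, in 14 (0.445% against 0.198%). AP-1 peaks were low, with medians of 1.12 and 0.852 against 1.31 and 0.925 for those without the word, and in the tallest of the 10 height classes the AP-1 share was 7.62%.

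The words were not equally covered by footprints. At least 1 footprint lay in 96.5% of the peaks in replicate 1 and 91.7% in replicate 2, against 95.2% and 90.3% in longer genes, and in 80.8% at least 1 base was footprinted in both libraries, against 75.1%. Of all bases searched in the peaks of short genes, 24.1% were in a footprint of replicate 1, 15.6% in one of replicate 2 and 11.4% in both. Of 336 CTCF words, 74.7% had at least 50% of their bases in a footprint of replicate 1, 67.3% in replicate 2 and 66.4% in both, against 65.6%, 56.5% and 54.5% of 850 words in longer genes. RFX words reached 69.8% in both libraries (43 words), YY1 words 75% (16 words), CRE words 63.2% (19 words) and NFI words 57.8% (64 words). AP-1 words reached 23.8% in replicate 1, 15.3% in replicate 2 and 7.25% in both. The 3 E-boxes were between, with 19.0% to 23.8% in both libraries. The sequence preference of DNase I was not measured here, and its part in these shares was not tested.

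**Figure D5:**
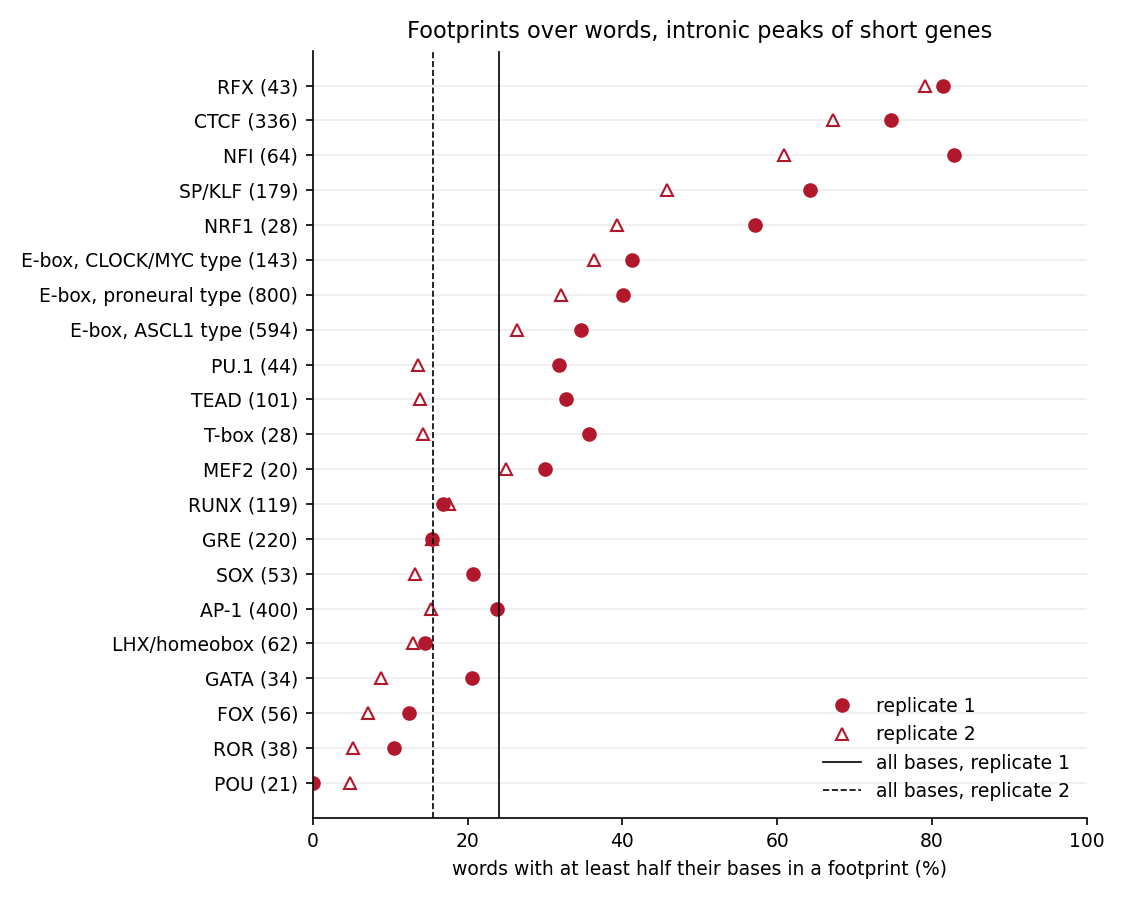
Share of words in the intronic peaks of short genes with at least 50% of their bases inside a footprint (x axis, percent) in replicate 1 (circles) and replicate 2 (triangles), for words found at least 20 times, with their number in brackets. Vertical lines give the share of all bases in footprints, 24.1% (solid, replicate 1) and 15.6% (dashed, replicate 2); CTCF, RFX and NFI words lie far right of both lines and AP-1 words close to them, although the points are shares of words and the lines shares of bases.

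The peaks with the most footprint bases in both libraries were mainly wide or tall. A 660-bp peak in the first intron of Peg3, an imprinted zinc finger gene, had 137 such bases at heights of 3.25 and 2.28. Cdkn1a, which encodes the cell cycle inhibitor p21, had 122 in a 380-bp peak 1050 bp from the nearest start, with heights of 5.34 and 3.08 against a promoter of 1.81 and 1.10. Nr1d1 had 117, Clec18a 115 and Tmem189 90 such bases.

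The peaks were spread thinly over the genes. Of 13498 protein-coding genes under 50000 bp with at least 1 eligible intronic base, 2325 (17.2%) held a member, 1722 of them with 1, 447 with 2 and 156 with 3 or more. The share of genes with a member followed gene length, with 4.24% below 10000 bp, 13.9% from 10000 to 20000 bp, 24.9% from 20000 to 30000 bp, 35.5% from 30000 to 40000 bp and 43.2% from 40000 to 50000 bp. On X 7.28% of such genes held one, against 12.6% to 23.3% on the autosomes. Male animals carry 1 copy of X, and gene length was not matched between chromosomes. The part of either in this gap was not tested. Host genes had a promoter peak in both libraries in 69.0% of cases (67.1 to 70.9), against 53.7% (52.8 to 54.6) of short genes without a member. The gap was 57.5% against 39.4% below 10000 bp and 62.5% against 60.2% from 10000 to 20000 bp. It was 69.3% against 63.9%, 73.7% against 70.1% and 75.7% against 69.3% in the 3 longer classes. Where a promoter peak was present its median height was lower in hosts, 2.90 and 2.04, against 3.41 and 2.42 in genes without a member.

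The 10 genes with the most members were Snph with 9, Gucy2g and Ralgds with 7 each, Dnm1, Glt8d2, Kdm6b and Thra with 6 each, and Cnga3, Ctnnbip1 and Kcnk9 with 5 each. Some members of Kdm6b, Glt8d2 and Kcnk9 shared a replicate 2 peak, and some members of Glt8d2 and of Gucy2g overlapped each other. The counts of these genes are therefore not all of separate sites. The 10 genes differed in height and in where the peaks stood. Snph, which anchors mitochondria in axons, held a row of low peaks with medians of 0.595 and 0.491. Replicate 1 heights spanned 0.250 to 2.03 and replicate 2 heights 0.223 to 1.77, and the promoter had 1.996 and 1.37. In Ralgds, an exchange factor for Ral GTPases, all 7 peaks were in the first intron, between 1.36 and 3.67 in replicate 1 and between 0.975 and 2.71 in replicate 2. Dnm1, the dynamin of synaptic vesicle endocytosis, had all 6 in its first intron within 8760 bp, between 1.36 and 2.42 and between 0.829 and 1.59, under a promoter of 4.75 and 3.04. Kdm6b, a histone H3 lysine demethylase, was the densest, with 6 peaks in 5847 eligible bases, all in the first intron within 3320 bp. Its tallest measured 5.04 and 2.95, and its own promoter had no strict peak in replicate 1 and one of 0.937 in replicate 2.

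Thra, the thyroid hormone receptor alpha gene, held 6 peaks over 20194 bp. Its tallest, in the first intron, measured 4.27 and 3.23, above the promoter at 1.67 and 1.09. Glt8d2, a glycosyltransferase gene, had 1 tall peak of 4.98 and 2.67 among 5 lower ones. Ctnnbip1, an inhibitor of beta-catenin, had the tallest set by its median, 2.72 and 1.97, and none of its 5 was in the first intron. Kcnk9, a two-pore potassium channel, had 1 peak of 3.49 and 2.22 and 4 between 0.795 and 1.52 in replicate 1. Gucy2g, a guanylate cyclase, and Cnga3, a cyclic nucleotide-gated channel subunit known from cones, had no strict promoter peak in either library, while their tallest intronic peaks by replicate 1 measured 2.92 and 1.74 in Gucy2g and 3.32 and 1.83 in Cnga3. Of the 62 peaks in these 10 genes, 1, in Ralgds, held the CTCF word, against 10.5% of all members and 6.67% of those in first introns.

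Among the gene lists, 4 of 9 clock genes held a member, and 2 of 9 when centres had to be over 2500 bp from every start. These 9 are the clock genes under 50000 bp with eligible introns, and Nr1d1, Per1, Per2 and Cry2 held 9 member peaks among them. Besides Nr1d1, a peak in Per1, a light- and glucocorticoid-responsive repressor of the clock, measured 4.94 and 3.61 and held a CRE word. The Per1 peak lay outside the introns of the principal transcript. A peak in the first intron of Cry2, a repressor of CLOCK and BMAL1, measured 2.91 and 2.16. Nr1d2, Dbp, Tef, Ciart and Bhlhe40 held none. Of 14 synaptic genes 5 held a member (3 at over 2500 bp from starts and 9 with the larger peak sets), with the tallest in Dlg4, the scaffold PSD-95 (4.56 and 3.06), and in Cplx2, a complexin (2.67 and 1.76). In both genes the intronic peak was above the promoter, which had 2.88 and 1.97 in Dlg4 and 1.46 and 0.668 in Cplx2. Synaptic genes without a member included Syp and Vamp1. All short genes together had 17.2%, and with so few genes a list the counts are given as a description.

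Of 12 immediate early genes with eligible introns 1 held a member (8.33%, against 17.2% of all short genes), a count that was 3 with the larger peak sets and 0 with a reciprocal overlap of 50%. The 12 genes had 71.8 kb of eligible intron. That 1 peak gave 13.9 members per Mb, against 20.3 in all short genes. The gene was Fosl2, an AP-1 subunit, with 0.701 in replicate 1 and 1.25 in replicate 2, while Fosb and Junb held none. Their promoters were open, with a strict peak at 23 of 23 listed genes in replicate 1 and 22 in replicate 2. Of 8 ribosomal protein genes only Rps14 held members, 3 peaks of which the tallest measured 2.76 and 1.44, and Rpl3 and Rpl4 held none. Rps14 is annotated at 31449 bp, and all 3 peaks were in its first intron, 7235, 12016 and 7901 bp from the nearest start. Their place relative to other transcripts of Rps14 was not examined. Among glucocorticoid targets Per1 and Klf9 held members, 2 of 3 genes with eligible introns, with 2.02 and 1.30 for the taller peak of Klf9, a Krüppel-like factor, and Nfkbia held none.

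Several marker genes of single cell types held a member although their promoter had no strict peak in either library. For oligodendrocyte and myelin genes these were Mobp (1.77 and 0.822) and Mog (0.738 and 0.538 for the taller in replicate 1), 2 of 7 genes, neither with a promoter peak, while Mag and Cnp held none. Cspg4, the NG2 proteoglycan of oligodendrocyte precursors, held 3, with heights of 2.76 and 1.47, 2.23 and 2.00, and 1.86 and 1.40, and had no promoter peak, while Pdgfra held none. For microglia 3 of 10 genes held 1 each, among them Spi1, which encodes PU.1 (2.87 and 1.98), and Csf1r, a growth factor receptor (1.04 and 0.622). Neither Spi1 nor Csf1r had a strict promoter peak, and C1qa and C1qb held no member. The Spi1 window held the CTCF word, as did the window of the taller Gad1 peak described next. That Gad1 peak, like those of Mobp and Aqp4, lay outside the introns of the principal transcript of its host. Of 10 inhibitory neuron markers Gad1, a GABA-synthesizing enzyme, held 2, the taller at 2.90 and 2.15 above its promoter at 1.11 and 1.11, and Slc32a1, the vesicular GABA transporter, held 1 at 0.939 and 0.737, while Pvalb and Sst held none. Of 8 excitatory markers only Slc17a6 held members, both low, at 0.607 and 0.392 and at 0.394 and 0.376, and Slc17a7 and Neurod2 held none. Aqp4, the astrocyte water channel, held 1 at 0.807 and 0.468, 1 of 7 astrocyte genes, with Gfap and Sox9 among those without. Cdh5, the endothelial cadherin, held 1 at 1.09 and 1.31, 1 of 5 endothelial genes, with Kdr and Slc2a1 among those without. None of 10 liver genes (Alb and Ttr among them) and none of 9 lymphoid genes (Cd3d and Cd3e among them) held a member. The liver and lymphoid lists had only 61.8 and 54.5 kb of eligible intron, where short genes as a whole had 20.3 members per Mb. Of all short genes with eligible introns 17.2% held a member, and with so few genes a list these marker counts are a description.

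Among hosts under 5000 bp, the highest by mean rank over both libraries was in Clec11a, a secreted C-type lectin, whose peak in the last intron measured 4.79 and 3.34. A second, 60-bp member nearby (2.56 in replicate 1) overlapped the same replicate 2 peak. The Clec11a promoter had 0.300 in replicate 1 and no strict peak in replicate 2. Mxd3 had 5.56 and 2.93 above a promoter of 1.89 and 1.26. Ptma, the small acidic nuclear protein prothymosin alpha, had 3.69 and 2.54 under a promoter of 7.47 and 4.51, and its window had the highest GC content of those printed, 74.5%.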

How the data were processed

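DNase-seq peaks, per-base false discovery rates and footprints of 2 libraries were used. The deposited notes trace every file to filtered mm10 alignments of a single library, so nothing was pooled. No caller, version, threshold or read depth is given in the sources used here, so intervals cover counting error over peaks only. Peak height is the signal deposited by the authors, on a scale they do not state. For single bases the authors deposited q-values (false discovery rates), with only those below 0.05 listed. Footprints were deposited by the authors with 0.01 in every row, taken here to be a p-value limit, and only their positions were used. Reads of the hybrid mice were aligned to the C57BL/6J assembly, which can lower counts over CAST/EiJ variants.

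The smaller of the deposited peak sets was used for each library (91818 and 75245 peaks). Transcript starts, exons and genes came from GENCODE M21, and sequence from the RefSeq copy of GRCm38.p6. Eligible intron means bases that meet every positional condition of the rule. A promoter peak is a strict peak within 1000 bp of a start of the gene. Words were searched on both strands of 200-bp windows; 28 were used, and the NFI word was shortened after values were seen. A peak's copy number was taken as the middle of 3 counts, each of a 31-base stretch of it across the assembly. Shares carry exact (Clopper-Pearson) 95% intervals. The scripts used Python 3.11.15, numpy 2.4.6, pandas 2.3.3, scipy 1.17.1, numba 0.67.0, matplotlib 3.10.9 and bedtools 2.31.1, and overlap, selection and word counts were tested on simulated data. No p-value was computed.

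The members, gene lists, words and named genes were chosen with earlier results of these data known. Named are the 12 tallest single-copy peaks by mean rank, the 10 genes with the most members, the 3 highest peaks of each list with up to 2 listed genes without one, the 5 peaks with the most common footprint bases, the 3 highest by mean rank in genes under 5000 bp, and the 3 highest and 3 lowest height ratios among peaks above the median height in both libraries. A few items that this rule names are not reported here. Alternatives were another overlap, peak set, height, start distance, gene length, window or coordinate library, and leaving out each library.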

Additional observations from a re-analysis of the deposited data

How the results depend on the processing

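Of 142 alternative values, 80 stayed within the range set for them and 62 did not. Longer genes were recomputed beside the members for 4 words only: the CTCF and SP/KLF shares were above those of longer genes, and the AP-1 and CAGATG shares below, in every setting run. For height, GC content, footprints, first introns and promoters the comparison was not recomputed. With a reciprocal overlap of 50% the CTCF share was 11.7% and the first-intron share 29.9%. With the larger peak sets there were 5735 peaks, with a mean of the libraries' median heights of 0.775, a footprint in 84.6%, 35.6% in first introns, a median GC content of 51.25%, a promoter peak in 76.1% of hosts, the CTCF word in 9.08% and 36 listed genes with a member, against 22. With peaks at or above their library's median height there were 1803, with a height of 1.49, a footprint in 98.8%, a GC content of 52.7%, a promoter share of 64.6% and a CTCF share of 12.4%. At 2500 bp from starts the first-intron share was 26.1%, the GC content 51.4% and the promoter share 66.7%. With a length limit of 30000 bp there were 1661 peaks, 36.3% in first introns and a promoter share of 64.8%, and with 100000 bp there were 6049, with a GC content of 51.25%, a promoter share of 72.8% and a CTCF share of 9.29%. In 100-bp windows the CTCF share was 8.57%. Each library was also taken alone, with no sharing asked, and values follow for replicate 2 and then replicate 1. The number of peaks was 3759 and 5327 and the first-intron share 33.3% and 36.1%. The GC content was 51.2% and 52.1% and the CTCF share 9.58% and 9.16%. Median height was 0.837 and 0.939, against 0.914 and 1.28 for the shared peaks in the same library. The footprint share was 88.2% and 89.1%, against 91.7% and 96.5% in the same library. The promoter share was 69.8% and 75.7%. It asked for a promoter peak in that 1 library only, a looser measure than the 69.0% for both libraries. Of 45 values for single gene lists, 17 moved by over 1.5 times; clock genes with a member were 2 of 9 at 2500 bp from starts, and immediate early genes 0 with a reciprocal overlap of 50%. The alternatives themselves change how many peaks meet the rule, and the cause of each changed value was not tested. No paired analysis was possible because there is 1 group. Read depth is not given, so what it limits could not be computed.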
